A study of Mus musculus with 6 samples.

Results

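The cytosolic ribosomal proteins were read as 1 group of genes in cultured KPC cells with and without knockdown of Brca2. The group holds the rows of the deposited count table whose symbol begins with Rps or Rpl followed by a digit, p or a, after 6 ribosomal S6 kinase genes (Rps6k) and 4 rows labelled as pseudogenes (-ps) were left out. This gave 82 of the 10616 listed genes, 32 named for the small subunit, 49 named for the large subunit, and Rps19bp1, which encodes a binding protein of Rps19 and is not itself a ribosomal protein. The rule also takes in paralogs that are not part of the standard ribosome (Rps27l, Rpl22l1, Rpl7l1 and Rpl36al) and the rows Rpl32l and Rpl37rt, named for Rpl32 and Rpl37, and misses ribosomal proteins under other names, such as Fau and Rack1.

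KPC cells are a mouse pancreatic ductal adenocarcinoma line. Both groups carried a lentiviral short hairpin RNA under puromycin selection, directed against Brca2 in 3 libraries (shBrca2) and at no target in 3 libraries (shControl). Cells grown in wells were sorted for live cells, and the 3′ ends of their poly(A) RNA were sequenced by a variation of MARS-seq. The mouse's age, the number of clones behind each line and whether the libraries of a group came from separate cultures are not given in the labels, and a supplementary legend of the study gives n in mice for these cells while the labels describe cultured cells. What a replicate is was therefore unclear, and p-values measure the spread between these libraries, which may be technical.

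Each cytosolic ribosome carries a single copy of nearly every ribosomal protein, joined to ribosomal RNA, and cells make the proteins in balanced amounts. Their mRNAs are among the most abundant in dividing cells. Most begin with a terminal oligopyrimidine tract, a run of C and T at the start of the mRNA through which the mTOR kinase and the RNA-binding protein Larp1 control their translation. Some free ribosomal proteins have further roles, among them Rpl5 and Rpl11, which bind the p53 regulator Mdm2.

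Of the 82 genes, 63 have an entry among the RefSeq promoters of GRCm38.p6, the build that is also called mm10. A start-site tract, taken here as a C within 3 bases of an annotated start followed by at least 4 bases that are each C or T, was present in 26 of them (41.3%), against 13.5% of all 27025 genes in that table. In the 300 bases around the start, CCGGAAG, a sequence of the kind bound by ETS factors, occurred on either strand in 24 (38.1%), against 9.93% of all genes. AAGATGGC, the core of the YY1 site, occurred in 6 (9.52%), against 3.19%. The E-box CACGTG was found in 9.52% and the TATA-box letters TATAAA in 12.7% of the 63 genes, against 8.09% and 15.7% of all genes. This background of 27025 genes is not limited to the 10616 counted in these cells. The shares therefore do not compare the group with other expressed genes. The 30 bases centred on the annotated start are shown for the genes on which the comparisons below turn, and for Rps6, whose protein is the best known substrate of the S6 kinases. They are written along the mRNA strand, and capitals mark the tract where these letters hold one. Coordinates are those of GRCm38.p6.
Rpl39, chrX:37085208-37085237, minus strand: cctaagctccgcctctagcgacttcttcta
Rpl22l1, chr3:28805493-28805522, plus strand: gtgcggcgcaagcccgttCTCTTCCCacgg
Rpl5, chr5:107900513-107900542, plus strand: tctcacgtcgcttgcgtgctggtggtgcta
Rpl15, chr14:18270972-18271001, minus strand: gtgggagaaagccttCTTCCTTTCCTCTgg
Rps12, chr10:23787195-23787224, minus strand: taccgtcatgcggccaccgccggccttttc
Rpl7a, chr2:26910792-26910821, plus strand: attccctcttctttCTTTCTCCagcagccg
Rps6, chr4:86857353-86857382, minus strand: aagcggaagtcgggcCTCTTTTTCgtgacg

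Libraries held 1519340 to 2452467 counts. Brca2 had 13.6, 10.4 and 12.2 normalized counts (counts divided by the library's size factor) in shBrca2 and 33.3, 43.6 and 32.6 in shControl, a log2 fold change of -1.61 ± 0.442 (SE; DESeq2 adjusted p = 0.029), so the libraries followed their labels. The call of Brca2 was lost without shBrca2 replicate 2, shBrca2 replicate 3 or shControl replicate 2, with adjusted p between 0.152 and 0.371. All 6 markers of duct-type epithelium (Krt7, Krt8, Krt18, Krt19, Epcam and Cdh1) were in the table, with summed normalized counts of 16509 to 17304 in shBrca2 and 17430 to 18540 in shControl. Of the other cell types, 1 of 6 fibroblast markers (Col1a2), 1 of 4 immune markers (Cd68) and 0 of 3 endothelial markers were listed, at sums of at most 22.2.

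To ask whether the knockdown changed how much of the mRNA pool encodes ribosomal proteins, the share of all listed counts that fell on the 82 genes was compared. The share was 12.5%, 12.8% and 13.1% in shBrca2 and 13.5%, 12.9% and 12.0% in shControl. The groups overlapped, and the highest and the lowest share both belonged to shControl. The means were 12.8% ± 0.323 (SD, n = 3) and 12.8% ± 0.776 (SD, n = 3), and their difference of 0.0186 percentage points was smaller than the spread within either group. The 95% Wilson interval of the share in the shBrca2 replicate 1 library ran from 12.42% to 12.53%, which covers counting error only and takes counts as independent molecules, while the use of molecular identifiers is not given. The mRNAs of mitochondrial ribosomal proteins, which serve the separate ribosome of mitochondria, spread much less, with shares between 1.04% and 1.06% in all 6 libraries. In bulk samples such as these, fewer cells of a type and less RNA per cell cannot be told apart.

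Neither subunit stood apart from the other. In shBrca2, 5.25% ± 0.0959 of counts fell on small subunit genes, and in shControl 5.15% ± 0.376 did (SD, n = 3 each). Large subunit genes took 7.53% ± 0.235 and 7.62% ± 0.517 (SD, n = 3 each). The ratio of large to small subunit counts was 1.40, 1.45 and 1.44 in shBrca2 and 1.55, 1.37 and 1.53 in shControl. Again the groups overlapped, and the shControl libraries held both the lowest and the highest ratio. The stalk proteins Rplp0, Rplp1 and Rplp2, which form the arm that recruits elongation factors to the large subunit, had shares of 1.59% ± 0.0946 and 1.60% ± 0.155 (SD, n = 3 each).

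**Figure D1:**
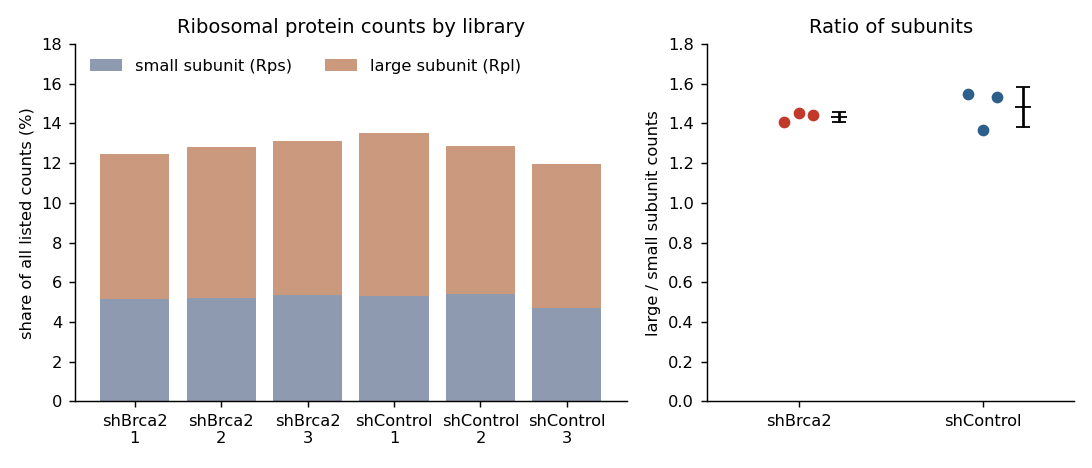
Left, share of all listed counts (%) on small subunit (blue-grey) and large subunit (tan) genes in each library, stacked from 0; right, ratio of large to small subunit counts, with 1 point per library (red, shBrca2; blue, shControl) and the mean ± SD of each group in black. The stacked bars reach 12.0% to 13.5%, both ends of that range belong to shControl, and the ratios of the groups overlap.

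The levels of the single genes were far from equal. Since each mRNA is counted at its 3′ end, the counts carry no length factor and were not divided by length. The 6 genes with the largest mean share, Rplp1, Rplp0, Rps2, Rpl4, Rpl32 and Rpl12, held 25.2% of all ribosomal protein counts, and 25 of the 50 genes with the largest totals in the whole table were ribosomal protein genes. Rplp1, a stalk protein on chromosome 9, was the gene with the 4th largest total, at 15874, 15683 and 15016 normalized counts in shBrca2 and 18568, 17147 and 14418 in shControl. At the other end, 10 of the 82 genes had a mean under 100 normalized counts and 5 had a mean under 20, while 52 reached at least 1000. Rps27, a zinc-finger protein of the small subunit, had 0, 6 and 6 counts in shBrca2 and 8, 0 and 3 in shControl. A count of 0 allowed a share of up to 0.000197% in shBrca2 replicate 1 and of up to 0.000122% in shControl replicate 2, for counting error only. Its paralog Rps27l was counted at 779 to 903 normalized counts in every library. Rps20, Rps15a, Rpl34 and Rpl21, which were picked out after their values were seen, had between 23 and 80 counts in all 6 libraries together.

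Ribosomal protein mRNAs have been copied back into the mouse genome many times, and the treatment of reads that match several places is not given in the sources used here. Exact 32-base windows from the 150 bases on each side of the stop codon were therefore looked up in GRCm39. Of 80 genes with a transcript in that annotation, 79 had windows that also occurred elsewhere in the genome, and in the median gene 70.3% of windows did. For the 74 mitochondrial ribosomal proteins the median was 0%, and 32 had any such window. Every window of Rpl21, Rps12 and Rps29, among others, occurred elsewhere. The other genes with few counts named above lay below the median of 70.3%. They were Rps20 at 43.1%, Rps15a at 45.7%, Rpl34 at 48.3% and Rps27 at 65.8%. In that order, their transcripts ran 3167, 4728, 1418 and 213 bases past the stop codon. Those of Rpl21, Rps12 and Rps29 ran 32, 28 and 91 bases past it. Windows ended where a shorter transcript ended, so these percentages do not compare genes like for like. Rpl29 and Rpl39, with 2649 and 1262 bases past the stop codon, were both at 86.6%. The part of this length in the percentages was not tested. The number of copies per window was not related in rank to the mean level (Spearman's rho = -0.04 across 80 genes) or to the log2 fold change (rho = 0.07), and had a rho of 0.36 with the spread over the 6 libraries across 71 genes. These are descriptions across genes, which are not independent replicates and share the same libraries. All values given here, the shares, the ratio of subunits and the contrast with mitochondrial ribosomal proteins included, are uncertain to the extent that such reads were dropped or shared.

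**Figure D2:**
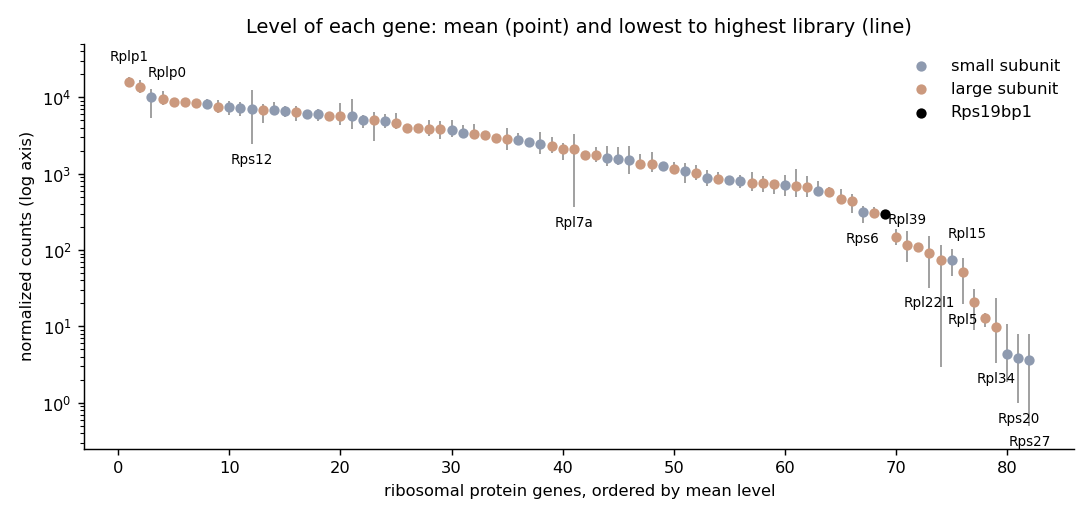
Normalized counts (log axis) of the 82 genes ordered by mean level, with the mean over 6 libraries as a point and a line from the lowest to the highest library; the lower ends of Rps27, which had 0 counts in 2 libraries, are drawn at 0.5. Levels run from 16118 for Rplp1 to 3.66 for Rps27, and Rps12, Rpl7a and Rpl15 have long lines.

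The share of ribosomal protein genes called was that of all genes. DESeq2 gave 79 of the 82 genes an adjusted p, the exceptions being Rps27, Rps20 and Rps15a. Of the 79, 1 was called (adjusted p under 0.1, absolute log2 fold change over 0.5 and base mean over 5), against a background of 1.27% of all 9997 genes tested, and the called gene was Rpl39, higher in shBrca2 (background for that direction 0.77%). None of the 79 was called lower by DESeq2, against a background of 0.5%. At an unadjusted p under 0.05 there were 6 genes, 4 higher (Rpl39, Rpl22l1, Rpl5 and Rps7) and 2 lower (Rpl29 and Rpl36), or 7.32% of the 82, against 8.33% of all genes. Rps7 is named here after its values were seen. The edgeR quasi-likelihood test also called Rpl39 alone, against a background of 1.33%. The median log2 fold change was 0.04 for the 82 genes and -0.00034 for all genes, with 50 genes over 0 and 32 under 0. The medians of the small and the large subunit were 0.06 and 0.03.

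The intervals show how far a change could reach. The 95% interval of the log2 fold change lay wholly within 0.5 on either side of 0 for 40 of the 82 genes (48.8%), against 12.7% of all genes. The median standard error was 0.175 against 0.306 for all genes. Neither comparison is matched for level: 52 of the 82 had a mean of at least 1000, while 3774 of all 10616 genes reached 100. Among genes that reached 100, the median SD of log2 normalized counts was 0.237 for ribosomal protein genes and 0.207 for all. Among the 40 were Rplp1, Rplp0, Rpl32, Rpl12, Rpl11 and Rpsa. For the others a change of that size was not excluded: 29 intervals reached above 0.5 and 25 reached below -0.5, some of them both.

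**Figure D3:**
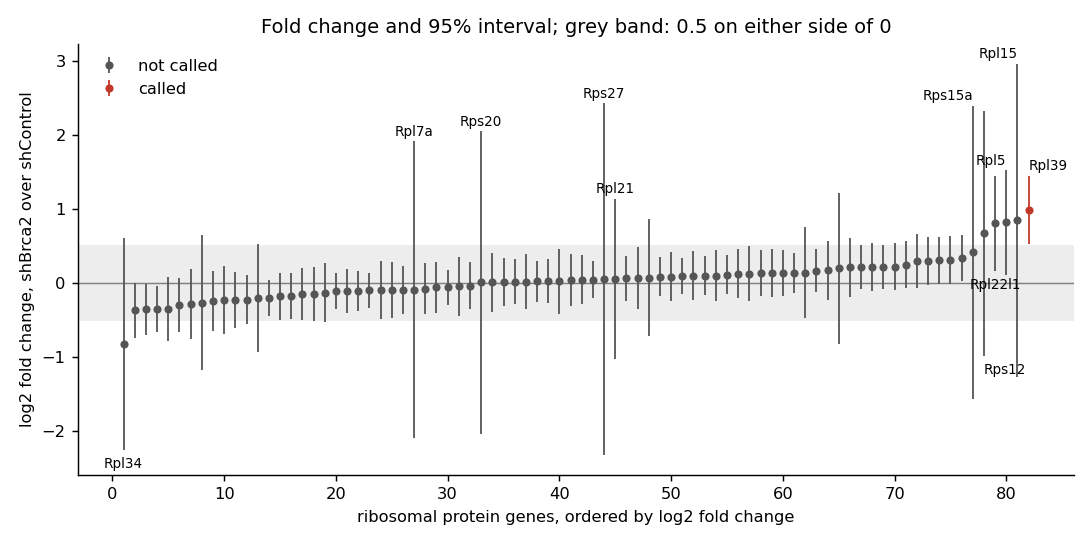
Log2 fold change of shBrca2 over shControl for the 82 genes in order, with 95% intervals; the grey band marks 0.5 on either side of 0 and the called gene is red. Most points lie inside the band, Rpl39 at 0.99 is the called one, and the widest intervals belong to genes with low counts or with libraries that stand apart.

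Rpl39, on the X chromosome (chrX:37082518-37085222), encodes a very small protein that lines the exit tunnel of the large subunit. It had 163, 179 and 125 normalized counts in shBrca2 and 78.8, 70.4 and 86.0 in shControl. The lowest shBrca2 library lay above the highest shControl library. The means were 156 ± 27.5 and 78.4 ± 7.80 (SD, n = 3 each), a log2 fold change of 0.99 ± 0.235 (SE; DESeq2 adjusted p = 0.00646). Read against the ribosomal protein pool alone, Rpl39 gave 0.590 ± 0.110 of every 1000 counts for shBrca2 and 0.299 ± 0.0492 for shControl (SD, n = 3 each), with a log2 fold change of 0.93 (DESeq2 adjusted p = 0.0297). The call was lost without shControl replicate 2, where the log2 fold change was 0.92 and the adjusted p 0.152, and without shBrca2 replicate 1 and shControl replicate 3 together, where they were 1.03 and 0.171. The gene is a minor one in this table, with 702 counts in all, a snoRNA gene (Snora69) lies within it, and 86.6% of the windows around its stop codon occurred elsewhere in the genome, the part of which in the result was not tested. The bases at its annotated start shown above hold no tract by the rule used.

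Complete separation of the groups was found for 3 ribosomal protein genes. Rpl39 was 1 of 82 (1.22%) with all shBrca2 libraries above all shControl libraries, against 10.2% of all genes. Rpsa, the laminin-binding protein of the small subunit, and Rpl13a, named here after its values were seen, had all shBrca2 libraries below (2.44% of the 82, against 10.1% of all genes). Rpsa had 5929, 5772 and 5861 normalized counts in shBrca2 and 5990, 6500 and 6304 in shControl, a log2 fold change of -0.10 (95% interval -0.34 to 0.14; DESeq2 adjusted p = 0.925). For Rpl13a the log2 fold change was -0.20 (95% interval -0.45 to 0.05; DESeq2 adjusted p = 0.727).

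The next largest positive values belonged to Rpl15, Rpl5 and Rpl22l1, none of them called. Rpl22l1, a paralog of Rpl22 that can take its place in the ribosome, had 95.3, 101 and 152 normalized counts in shBrca2 and 32.3, 71.3 and 95.9 in shControl. The groups overlapped by a small margin, at a log2 fold change of 0.81 ± 0.326 (SE; DESeq2 adjusted p = 0.344). Rpl22 itself had 102, 109 and 118 against 102, 103 and 119, a log2 fold change of 0.03 ± 0.224 (SE). Rpl5, which joins the 5S ribosomal RNA in the large subunit, had 66.7, 53.9 and 78.3 normalized counts in shBrca2 and 58.6, 34.4 and 19.8 in shControl, a log2 fold change of 0.82 ± 0.361 (SE; DESeq2 adjusted p = 0.443). It was called without shControl replicate 1, at 1.28 and an adjusted p of 0.0747. Its partner in that complex, Rpl11, had a log2 fold change of 0.06 ± 0.153 (SE). Rpl15, of the large subunit, had 88.5, 78.5 and 117 normalized counts in shBrca2 and 78.8, 76.3 and 2.97 in shControl. A single library, shControl replicate 3 with 3 counts, set its log2 fold change of 0.85 ± 1.08 (SE), which was 0.29 without that library.

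**Figure D4:**
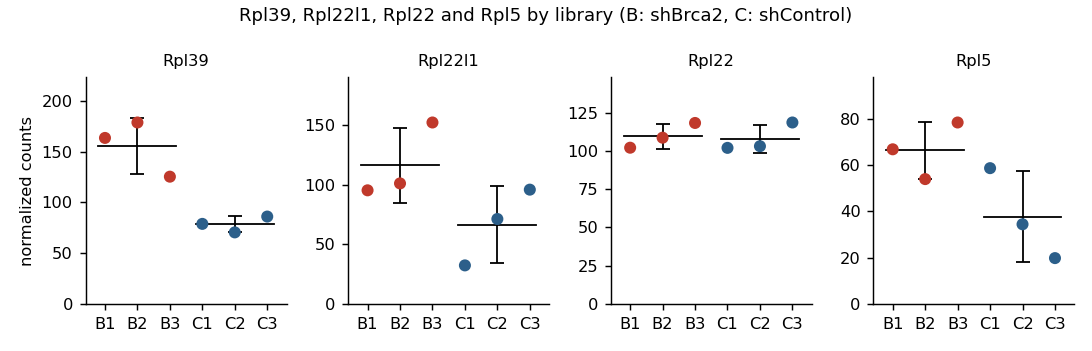
Normalized counts of Rpl39, Rpl22l1, Rpl22 and Rpl5 in each library (red, B1 to B3, shBrca2 replicates 1 to 3; blue, C1 to C3, shControl replicates 1 to 3), from 0, with the mean as a line and the SD as a bar. Only for Rpl39 do the groups stay apart, from 125 to 179 against 70.4 to 86.0.

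In the other paralog pairs listed 0 genes were called, against 1.27% of all genes tested, so that the count says nothing particular of them. The log2 fold changes were 0.22 ± 0.160 for Rpl7 and -0.23 ± 0.232 for Rpl7l1, 0.22 ± 0.164 for Rpl36a and -0.09 ± 0.198 for Rpl36al, and 0.02 ± 0.143 for Rps27l (SE; DESeq2 adjusted p from 0.793 to 0.989). Rpl32l and Rpl37rt, which were in no listed pair and are named after their values were seen, had 0.20 ± 0.522 and 0.02 ± 0.188 (SE). Rps27 could not be read beside its paralog at 23 counts in all.

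The largest negative values among genes with a base mean of at least 20 were those of Rpl41, Rpl36, Rpl29 and Rps2, between -0.37 and -0.35 (DESeq2 adjusted p from 0.482 to 0.732). Rpl41, the smallest ribosomal protein, had 4895, 5606 and 4345 normalized counts in shBrca2 and 8485, 5689 and 4955 in shControl. The high library, shControl replicate 1, stood above all others. The same library was the highest for Rpl36, with 3940 against at most 2913 elsewhere, and for Rpl29, with 1307 against at most 1192.

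That library recurred across the group. Among the 72 genes with a base mean of at least 100, shControl replicate 1 held the highest value for 31 (43.1%), against 22.3% of all 3774 genes at that level. shControl replicate 2 held the lowest value for 22 (30.6%), against 12.4% of all such genes. Without shControl replicate 1 the median log2 fold change of the group was 0.156, and without any other single library it stayed between -0.035 and 0.033. The number of genes called was 2 without shControl replicate 1 (Rpl39 and Rpl5) and 0 without shControl replicate 2. The share of all genes called in these smaller fits is not given, so neither number has a background beside it. Brca2 also lost its call without shControl replicate 2.

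Several genes, which were picked out after their values were seen, differed more between libraries of a group than between the groups. Rps12, a small subunit protein, had 2607, 10964 and 12584 normalized counts in shBrca2 and 3811, 10112 and 2431 in shControl. In 3 libraries it was at 3811 or less and in the other 3 at 10112 or more, and each group held both kinds. Rpl7a, of the large subunit, had 545, 2853 and 2764 in shBrca2 and 2909, 3269 and 369 in shControl, so that 1 library of each group was low. The ratio of the highest to the lowest library was 5.18 for Rps12 and 8.86 for Rpl7a, and their log2 fold changes were 0.68 ± 0.845 and -0.09 ± 1.02 (SE). shBrca2 replicate 1 and shControl replicate 3 were low for both genes, and shControl replicate 1 was low for Rps12 but not for Rpl7a. Without these 2 genes the share of ribosomal protein counts was 12.3% ± 0.122 in shBrca2 and 12.4% ± 0.708 in shControl (SD, n = 3 each). In the windows around the stop codon the median number of copies elsewhere was 17 for Rps12 and 22 for Rpl7a, the part of which in the spread was not tested.

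Smaller jumps had other patterns. Rpl9 was lowest in shBrca2 replicate 1, at 2660 normalized counts against 4501 to 6335 elsewhere. Rps2, which sits at the mRNA entry of the small subunit, was lowest in shBrca2 replicate 3, at 5327 against 9177 to 12722. Rps29 was highest in shControl replicate 1 and shBrca2 replicate 1, at 9419 and 7241 against 3797 to 5144. In all, 8 of the 72 genes (11.1%) spanned more than 2-fold between libraries, against 9.27% of all genes at that level. The median SD of log2 normalized counts was 0.237 for these genes and 0.207 for all.

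**Figure D5:**
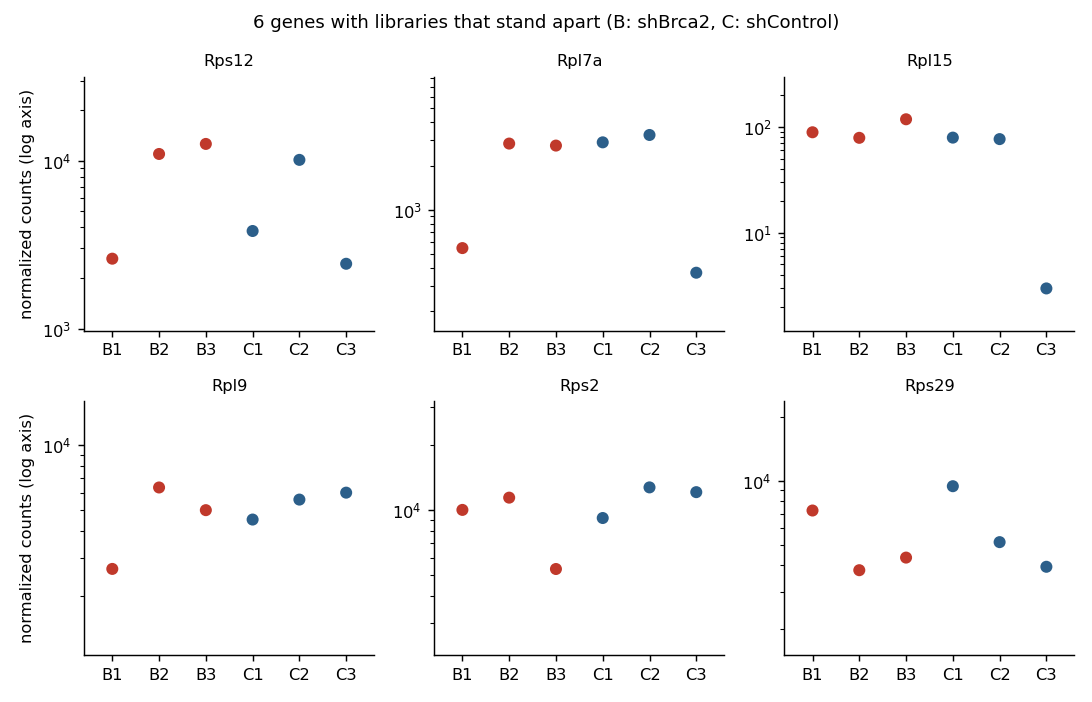
Normalized counts (log axis, with its own range in each panel) of Rps12, Rpl7a, Rpl15, Rpl9, Rps2 and Rps29 in each library (red, B1 to B3, shBrca2 replicates 1 to 3; blue, C1 to C3, shControl replicates 1 to 3). B1, C1 and C3 are low for Rps12, and B1 and C3 for Rpl7a. C3 is low for Rpl15, B1 for Rpl9 and B3 for Rps2. In no panel do the groups separate.

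The make-up of the pool as a whole was compared by the number of every 1000 ribosomal protein counts that would have to move from 1 gene to another to turn 1 library into the next. It was 84.1 to 113 for the 3 pairs of shBrca2 libraries and 66.1 to 106 for the 3 pairs of shControl libraries. The 9 pairs between the groups gave 48.1 to 128, with a median of 82.5, below the medians of 105 within shBrca2 and 102 within shControl. Leaving out Rps12 and Rpl7a gave 65.3 to 108, 43.7 to 97.1 and 38.5 to 126.

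Fold changes were also set beside the start-site tract. The median log2 fold change was 0.02 for the 26 genes with a tract, 15 of them over 0, and 0.09 for the 37 without, 26 of them over 0. This split rests on annotated starts and on the rule above. The start used in these cells was not read, so genes without a tract here may still have one. Rps6 had 309, 375 and 369 normalized counts in shBrca2 and 308, 321 and 226 in shControl, a log2 fold change of 0.30 ± 0.187 (SE; DESeq2 adjusted p = 0.718). Rps27a, made as a fusion with ubiquitin, had a log2 fold change of -0.22 ± 0.193, and Rps19bp1 had 0.13 ± 0.167 (SE).

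Other genes of the pathway were read from lists. Of 19 translation factors and other mRNAs of the terminal oligopyrimidine class, 1 was called higher and 0 lower (0.77% and 0.5% of all genes tested), with a median log2 fold change of 0.07. The called gene was Eif3e, a subunit of the initiation factor eIF3, with 158, 161 and 133 normalized counts in shBrca2 and 47.5, 87.2 and 102 in shControl, a log2 fold change of 0.93 ± 0.266 (SE; DESeq2 adjusted p = 0.0511). The edgeR adjusted p was 0.125, and the call was lost without any library but shControl replicate 3, with adjusted p of 0.248 to 0.327. Eef1a1, which brings aminoacyl-tRNA to the ribosome, had 2382, 2344 and 2433 against 1771, 1856 and 1919. These do not overlap, as was so for 10.2% of all genes in that direction. Its log2 fold change was 0.37 ± 0.126 (SE; DESeq2 adjusted p = 0.175). Tpt1, an abundant mRNA of this class, had a log2 fold change of -0.51 ± 0.181 (adjusted p = 0.209) and passed the threshold without shBrca2 replicate 2, at -0.69 and 0.0548. The translocation factor Eef2 had -0.20 ± 0.171 (SE). Of the ribosomal proteins that the rule missed, Fau had a log2 fold change of -0.15 ± 0.198 and Rack1 one of 0.17 ± 0.125 (SE).

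Of 41 ribosome biogenesis factors, which make ribosomal RNA and assemble the subunits, 0 were called, against 1.27% of all genes tested, so that the count says nothing particular of the list. Of the 41, 12 had a log2 fold change over 0 and 29 under 0, against 5300 and 5316 of all genes, and the median was -0.16. Of 13 regulators of ribosomal protein synthesis 12 were in the table and 0 were called, against the same 1.27%, with a median of -0.20. Mtor had 80.4, 76.6 and 64.4 normalized counts in shBrca2 and 91.9, 117 and 111 in shControl. These do not overlap, as was so for 10.1% of all genes in that direction. Its log2 fold change was -0.54 ± 0.246 (SE; DESeq2 adjusted p = 0.483). Larp1 had -0.32 ± 0.282 and the transcription factor Myc -0.18 ± 0.186 (SE). Of 4 dedicated chaperones of ribosomal proteins 3 were in the table and 0 were called, against the same 1.27%. Bccip, the partner of Rpl23 that also binds Brca2, had a log2 fold change of 0.07 ± 0.175 (SE). Of the 74 mitochondrial ribosomal proteins 1 was called higher and 0 lower, again near the background of 0.77% and 0.5%, with a median of -0.03. It was Mrps6, with 919, 1003 and 937 normalized counts against 587, 678 and 741, a log2 fold change of 0.51 ± 0.149 (SE; DESeq2 adjusted p = 0.0598). Its call was lost in edgeR (adjusted p = 0.115) and without any library but shControl replicate 3, with adjusted p of 0.140 to 0.330.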

How the data were processed

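Libraries were deposited as raw counts per gene symbol, which the authors did not normalize or pool. Per the labels' processing notes, mm10 was the build and bcl2fastq, cutadapt, STAR 2.4.2a, HTSeq and DESeq2 were used. The annotation, strand setting, use of molecular identifiers and treatment of multiply mapped reads are not given in the sources used here. Groups came from the source name in the labels. DESeq2 1.42.0 (R 4.3.3) was fitted on all 10616 genes, scaled by the median of ratios. As in the study's methods, the likelihood ratio test compared a model of group with one of an intercept, with Benjamini-Hochberg adjustment over all genes tested. The study's methods also mention a correction for batches beside microdissected tissue; whether it covers these libraries is unclear, the labels give no batch, and none was fitted. Fold changes were not shrunken. Shares are percent of the library's listed counts. The pipeline was tested on simulated counts. Alternatives were edgeR 4.0.16 (quasi-likelihood, TMM, filterByExpr), the Wald test, other size factors (TMM, total counts, without or only from the 82 genes), other filters and thresholds, other gene selections for the share, and each library left out.

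Named genes were Brca2, called genes, the 6 with the largest share, the 4 most extreme fold changes in each direction at a base mean of at least 20, counted paralog pairs, the stalk proteins, Rps6, Rpsa, Rpl5, Rpl11, Rps27a, Rps19bp1 and listed pathway genes; others are said to be picked after their values were seen. The genes and lists were chosen with earlier results of these data known. Promoter letters are from RefSeq (GRCm38.p6), and copies were counted in GRCm39 with the GENCODE vM39 transcript that ends soonest after the stop codon among those with a consensus coding sequence. Protein sequences were not used here. 1 listed pathway gene is not reported here.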

Additional observations from a re-analysis of the deposited data

How the results depend on the processing

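The number of genes called stayed within the limit set (1.5 times the count) under every change of test, size factors, filter and threshold run. The median log2 fold change stayed within its limit (the replicate SD) under every change of test, size factors and filter. Some of these could not move it, since the Wald test and the fit without independent filtering reuse the same estimates. Size factors from the ribosomal protein genes alone bring it near 0 by construction. The share and the ratio of subunits come from raw counts, so only the other gene selections could change them, and both stayed within the replicate SD. Leaving out single libraries moved the difference in share between -0.387 and 0.387 percentage points, the difference in ratio between -0.107 and -0.0155, the median log2 fold change between -0.035 and 0.156, and the number of genes called between 0 and 2. The number was 0 without shBrca2 replicate 1 and shControl replicate 3, a setting chosen after seeing the data. The cause of these shifts was not tested, and no share of all genes called is given for these smaller fits. No paired analysis was possible because no label ties a library of one group to a library of the other.

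Among 43 named genes and 726 comparisons, 680 kept direction and call, 23 lost a call, 2 gained one and 21 changed sign, for 11 genes. The Wald test, the fit without independent filtering and the other thresholds keep the main estimates, so they could not change a sign. Most of the named genes were not called, so keeping the call mostly meant staying uncalled. The sign changes were of genes that had not been called. With size factors from the ribosomal protein genes alone, Rpl32 was at -0.02, Rps27l at -0.042, Rpl22 at -0.042 and Bccip at -0.0037. Without shBrca2 replicate 1 and shControl replicate 3, Rpl11 was at -0.054 and Rpl9 at 0.17. Over single libraries left out, log2 fold changes ran from -0.0041 to 0.16 for Bccip, -0.29 to 0.15 for Fau, -0.00053 to 0.20 for Rpl11, -0.030 to 0.098 for Rpl22, -0.23 to 0.13 for Rpl36al, -0.59 to 0.36 for Rpl7a, -0.49 to 0.077 for Rpl9, -0.0047 to 0.24 for Rplp0, -0.033 to 0.076 for Rps27l and -0.60 to 0.17 for Rps29 (-0.84 without shBrca2 replicate 1 and shControl replicate 3). At these depths, genes under 20 counts on average could not be read, and only 40 of 82 intervals stayed within 0.5.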
